A study of Mus musculus with 5 samples.

Results

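Synaptic transmission depends on a set of proteins that store transmitter in vesicles, hold the vesicles at the release site and fuse them with the plasma membrane. The transcripts of these proteins, the synaptic vesicle and SNARE release machinery, were compared between cultured neurons of the mouse dorsal root ganglion (DRG neurons) and cultured cerebellar granule neurons (CGNs). The members were chosen by symbol: synaptotagmins, syntaxins, the SNAP25 family, vesicle-associated membrane proteins (VAMPs), syntaxin-binding proteins, the ATPase Nsf, complexins, synapsins, synaptophysin relatives and SV2 proteins, the active zone genes Rims, Unc13, Bsn and Pclo, and symbols that begin with Rab3. The rule found 88 of the 15154 genes of the deposited table, with 351 of its 50356 isoforms. Because the symbol pattern is loose, it also took in 11 Rab GTPases outside the Rab3 subfamily, such as Rab33a, and Snap91, the clathrin adaptor AP180, which is not a SNARE. Both were kept and are described apart.

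The study asked how transcripts differ between a peripheral neuron that regenerates its axon and a central neuron that does not. Polyadenylated RNA was sequenced from 3 DRG cultures and 2 CGN cultures. All 5 cultures came from C57bl/6j mice at postnatal day 8 and were grown on dishes coated with laminin at 5 µg/mL over poly-D-lysine at 100 µg/mL. DRG cultures combined the ganglia of a pair of mice, were kept for 16 days and received nerve growth factor and fluorodeoxyuridine, a drug against dividing glia, while each CGN culture came from a single mouse and was kept for 16 hours, so that cell type, time in culture and medium cannot be told apart.

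Release is triggered when calcium enters the terminal and binds synaptotagmin on the vesicle. Fusion itself is driven by SNAREs, in which a VAMP on the vesicle zips together with a syntaxin and a SNAP25 protein on the plasma membrane. Munc18 proteins and Munc13 proteins prepare the complex, complexin holds it ready, Nsf takes it apart afterwards, and Rim, Bassoon and Piccolo place vesicles beside calcium channels. Granule neurons send parallel fibres to Purkinje cells, whereas sensory neurons release glutamate and neuropeptides from central terminals in the spinal cord.

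Values were FPKM, fragments scaled to transcript length and, by the paper's methods, between libraries by upper-quartile normalization. They were summed over the isoforms of a gene. A gene was tested where at least 2 libraries reached 50 FPKM, and called in limma, on log2(FPKM + 50), when its p fell under 0.05 after Benjamini-Hochberg adjustment over all 13275 genes tested. Fold changes are DRG over CGN on that scale, which understates changes of low genes, and n is 3 and 2 throughout. The p-values measure the spread among these cultures. Read counts were not analysed here and the depth of a value is not known. A listed 0 can be a failed estimate: the ubiquitous chaperone gene Hspa8 was itself listed at 0 in DRG replicate 1.

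The DRG libraries summed to more FPKM than the CGN libraries, 1.88 times on average, and the median log2 fold change over all genes tested was 0.59. Each count below was therefore also taken after quantile normalization, equal total FPKM and median ratio scaling, which put that median at 0.02, -0.26 and -0.04. Markers followed the labels, with 11 of 11 sensory neuron genes higher and 8 of 8 granule neuron genes lower in DRG cultures. General neuronal genes outside the synapse summed to between 1.29e+06 and 1.94e+06 FPKM in DRG against 217317 and 372252 in CGN libraries. Of these, 6 of 14 were higher, 3 lower and 5 did not pass, with the same 6 and 3 called under all scalings. Other cells were present as well. The paper's own count of cells positive for neuronal tubulin found the DRG cultures mostly, but not wholly, neuronal. The names DRG neurons and CGNs therefore stand for whole cultures throughout. Schwann and satellite glia genes summed to between 91838 and 144111 FPKM in DRG against 23354 and 32193 in CGN libraries, with 7 of 11 higher and 1 lower, and fibroblast genes to between 42308 and 92421 against 2103 and 5362, with 6 of 8 higher. CGN cultures held other cells too. Astrocyte and Bergmann glia genes summed to between 953 and 1432 FPKM in DRG against 16705 and 24289 in CGN libraries, with 5 of 6 lower and 1 higher, and genes of other cerebellar neurons to between 124 and 6072 against 9029.9 and 15856, with 6 of 7 lower and Gad1 and Eomes listed at 0 in every DRG library. Microglia genes were lower for 3 of 3 and cell cycle genes for 6 of 6. These genes moved with the members called lower in DRG neurons (Syt7, Syt13, Syt14, Cplx2, Unc13a and Rims4), and their part was not tested. Of the markers of Schwann cells, Dhh was listed at 0 in both CGN libraries. In bulk RNA, fewer cells of a type and less RNA per cell cannot be told apart.

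DRG cultures held more transcript of 37 members and CGN cultures of 6, while 44 did not pass the test. Of the 37, 6 are Rabs outside the Rab3 subfamily that the pattern took in. Unc13d, which primes secretory granules in immune cells, was listed at 0 in all 5 libraries and was not tested, so 87 of the 88 members entered. The 37 genes are 42.5% of those tested, where 28.4% of all genes were called higher, and the 6 are 6.90%, where 9.22% of all genes were called lower. The members' median log2 fold change was 0.92. The balance moved with the scaling. Quantile normalization gave 30 higher and 20 lower, an equal total 24 and 26, and median ratio scaling 30 and 17. Of the members that did not pass as deposited, 20 were called lower under at least 1 other scaling and 1 higher, and 10 were lower under all 3. Under median ratio scaling the members' shares were 34.5% higher and 19.5% lower, beside 21.4% and 20.9% of all genes.

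Under the deposited FPKM and all 3 other scalings, 23 members were higher and the same 6 were lower, which is 26.4% and 6.90% of the members beside 17.0% and 9.08% of all genes. Every DRG library lay above every CGN library for 51 members (58.6%, against 43.5% of all genes) and below for 14 (16.1%, against 16.8%). No test was made over the list, and these shares are a description. Leaving out the 11 other Rabs, 31 were higher and 6 lower of 76 tested as deposited, beside 28.4% and 9.22% of all genes. As a whole the members made up between 0.865 and 0.997% of the summed FPKM of a DRG library and 1.24 and 1.06% of that of the CGN libraries, so that the release machinery took a smaller share of the DRG transcriptome even though more of its genes were called higher there.

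**Figure D1:**
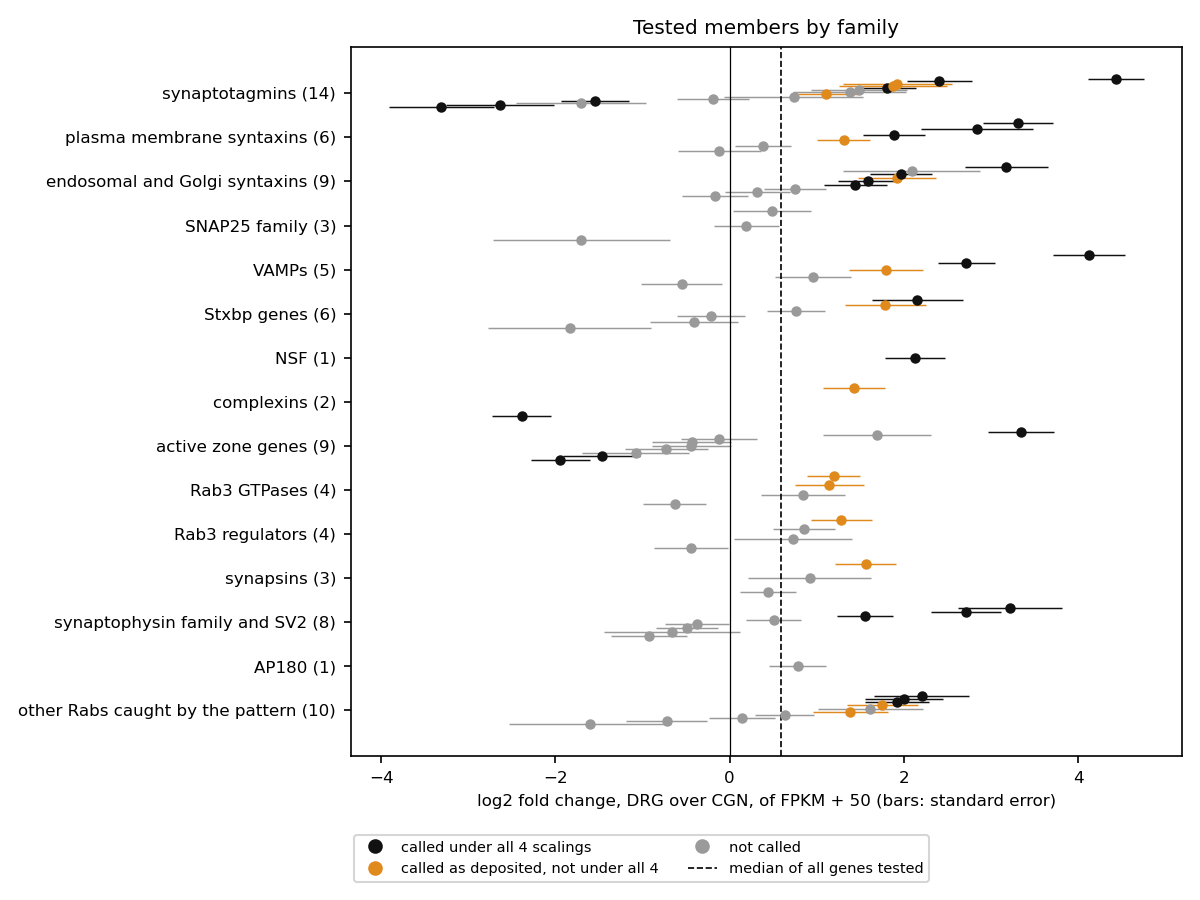
The log2 fold change (DRG over CGN, of FPKM + 50) of the tested members is plotted by family, with bars for the standard error and the number plotted in brackets. Vamp5 and Rab38, listed at 0 in both CGN libraries, are left out. Synaptotagmins, complexins and active zone genes spread to both sides, while called syntaxins and VAMPs lie to the right of the dashed median of all genes, 0.59.

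Promoters were read for every member with a promoter on record, and a few are printed. RefSeq promoters (GRCm38.p6, from 250 bases before to 50 bases after a transcription start) were found for 68 of the 88 members, which stand for 67 genes because Stx5 and Stx5a are the same gene under 2 symbols. The deposited table uses mm9, and the coordinates of this paragraph are not interchangeable with it. Shown 5′ to 3′ are Cplx1 and Cplx2, complexins that moved in opposite directions, Vamp1 and Rims3, which are among the largest increases in DRG neurons, and Syn1. Of the members found, Syn1 alone held the cAMP response element, and it is printed for that motif rather than for its change. Capitals mark the motifs that were searched on both strands: the cAMP response element TGACGTCA, the GC box GGGCGG, the TATA box TATAAA and CAGATG, an E-box of the kind bound by NeuroD factors. In Rims3 the E-box directly adjoins a GC box.
Cplx1 (chr5:108549978-108550277, minus strand): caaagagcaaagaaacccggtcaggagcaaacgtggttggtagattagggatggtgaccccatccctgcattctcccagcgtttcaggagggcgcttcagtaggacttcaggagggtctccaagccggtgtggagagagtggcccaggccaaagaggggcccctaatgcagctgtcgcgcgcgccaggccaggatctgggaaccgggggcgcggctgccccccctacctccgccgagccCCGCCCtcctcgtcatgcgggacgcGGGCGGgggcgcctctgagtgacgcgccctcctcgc
Cplx2 (chr13:54302306-54302605, plus strand): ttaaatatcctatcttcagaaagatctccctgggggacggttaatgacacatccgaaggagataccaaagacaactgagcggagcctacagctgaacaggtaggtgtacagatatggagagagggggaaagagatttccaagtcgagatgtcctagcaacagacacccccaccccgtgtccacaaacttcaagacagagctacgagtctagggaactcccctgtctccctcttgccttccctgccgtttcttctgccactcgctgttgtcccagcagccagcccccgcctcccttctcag
Vamp1 (chr6:125215331-125215630, plus strand): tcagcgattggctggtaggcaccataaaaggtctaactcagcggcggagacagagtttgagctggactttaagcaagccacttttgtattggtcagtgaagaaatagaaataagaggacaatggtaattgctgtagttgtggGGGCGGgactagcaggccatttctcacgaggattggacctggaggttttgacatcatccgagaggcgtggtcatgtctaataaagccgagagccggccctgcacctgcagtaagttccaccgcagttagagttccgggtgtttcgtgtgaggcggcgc
Rims3 (chr4:120854549-120854848, plus strand): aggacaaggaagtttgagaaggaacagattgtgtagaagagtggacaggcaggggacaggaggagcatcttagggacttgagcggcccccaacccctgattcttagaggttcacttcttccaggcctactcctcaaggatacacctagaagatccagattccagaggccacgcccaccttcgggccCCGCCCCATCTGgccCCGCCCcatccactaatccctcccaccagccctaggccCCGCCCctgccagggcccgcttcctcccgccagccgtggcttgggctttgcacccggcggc
Syn1 (chrX:20920869-20921168, minus strand): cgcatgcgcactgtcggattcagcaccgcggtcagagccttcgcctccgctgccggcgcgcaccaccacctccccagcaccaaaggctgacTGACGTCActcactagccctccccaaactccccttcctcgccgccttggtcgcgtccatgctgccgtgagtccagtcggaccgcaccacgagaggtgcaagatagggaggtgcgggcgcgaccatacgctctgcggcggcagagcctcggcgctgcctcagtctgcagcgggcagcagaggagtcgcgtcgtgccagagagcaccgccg

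The GC box was in 54 of the 67 genes (80.6%), beside 38.2% of all 27025 genes with a promoter of this length. It was in 25 of 31 members called higher, 2 of 3 called lower and 28 of 34 that did not pass. The TATA box was in 5 of 67 (7.46%, against 15.7% of all genes) and the E-box in 9 (13.4%, against 19.2%). Only Syn1 held the full cAMP response element, 159 bases before its start (1.49% of members, against 2.03% of all genes). The Cplx1 window held 2 GC boxes and the Cplx2 window none of the 4 motifs. The 27025 genes were not limited to genes that passed the expression filter, whereas 87 of the 88 members did. The shares therefore do not compare like sets, and are a description. A match is a run of letters and no more, and was not tested against any binding data.

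Among the 14 synaptotagmins, the calcium sensors and their relatives, 6 were higher, 3 lower and 5 did not pass. Syt4 ranked first of all members in DRG neurons and 36th in CGNs. It encodes an isoform found on dense-core vesicles and the Golgi whose first C2 domain does not bind calcium. Syt4 measured 42220.2, 49759.9 and 41711 FPKM in DRG and 1807 and 2225 in CGN libraries (log2 fold change 4.44 ± 0.32 (SE), adjusted p = 3.27e-05). The groups lay far apart, and on this scale no other member with signal in both cell types differed by as much. With a pseudocount of 1 FPKM the fold changes of low genes such as Stx11 (5.17) and Syt14 (-5.71) were larger than that of Syt4 (4.47). Syt5, another synaptotagmin of dense-core vesicles, measured 5314, 5037 and 4811 FPKM in DRG and 663 and 1244 in CGN libraries (log2 fold change 2.41 ± 0.37 (SE), adjusted p = 0.00126). Syt9, a fast calcium sensor, measured 6774, 6449.9 and 7357 FPKM in DRG and 1521 and 2432 in CGN libraries (log2 fold change 1.81 ± 0.34 (SE), adjusted p = 0.00320). Every DRG library was above every CGN library for both, and the calls held under all 4 scalings. Syt11, which like Syt4 lacks a calcium-binding site, measured 18479.9, 17713 and 24300.2 FPKM in DRG and 6954 and 12361 in CGN libraries (log2 fold change 1.10 ± 0.37 (SE), adjusted p = 0.0437). The groups did not overlap, but the call was lost under each other scaling and without CGN replicate 1 (adjusted p = 0.165), DRG replicate 1 (0.0955), DRG replicate 2 (0.0882) or DRG replicate 3 (0.163). Syt12 and Syt16 were also called higher, and not under every scaling. The Syt16 call was lost without DRG replicate 1 (adjusted p = 0.0659) or DRG replicate 3 (0.0726). In the authors' grouped FPKM Syt16 stood the other way, at 502 in DRG and 1041 in CGN.

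The 3 synaptotagmins that were lower in DRG neurons are not the classical fast sensors. Syt13, which lacks calcium-binding residues, measured 42.7, 77.8 and 39.0 FPKM in DRG and 676 and 1358 in CGN libraries (log2 fold change -3.31 ± 0.60 (SE), adjusted p = 0.00283). Syt14, a calcium-independent form, measured 67.0, 0.00567 and 4.31 FPKM in DRG and 304 and 458 in CGN libraries (log2 fold change -2.64 ± 0.62 (SE), adjusted p = 0.00939). The cell types did not overlap for either gene, and Syt14 was at the edge of detection in DRG neurons, with its call lost without CGN replicate 1 (adjusted p = 0.0684) or CGN replicate 2 (0.0701). Syt7, the slow high-affinity sensor of asynchronous release, measured 861, 1153 and 1474 FPKM in DRG and 3329 and 3491 in CGN libraries (log2 fold change -1.54 ± 0.39 (SE), adjusted p = 0.0128). All DRG libraries were below both CGN libraries, and the adjusted p of Syt7 rose to 0.0832, 0.0647 and 0.0533 without CGN replicate 1, CGN replicate 2 and DRG replicate 1. The main sensors of fast release gave no call as deposited. Syt1 measured 2446, 2183 and 3042 FPKM in DRG and 1919.6 and 4367 in CGN libraries and Syt2 measured 938, 737 and 2671 FPKM in DRG and 281 and 689.6 in CGN libraries. The Syt1 groups overlapped (log2 fold change -0.19 ± 0.42 (SE), adjusted p = 0.745), and Syt1 was called lower under the other scalings (adjusted p = 0.0351, 0.0143 and 0.0329 for quantile, equal total and median ratio). The Syt2 values stood higher in DRG neurons but scattered (log2 fold change 1.38 ± 0.65 (SE), adjusted p = 0.121).

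Of the 6 VAMPs, the vesicle SNAREs, 4 were higher in DRG neurons, none was lower and 2 did not pass. Vamp1 (synaptobrevin 1, chr6:125165166-125191573 in mm9), a vesicle SNARE known from spinal and motor synapses, measured 7353, 7046 and 4703 FPKM in DRG and 223 and 425 in CGN libraries (log2 fold change 4.13 ± 0.41 (SE), adjusted p = 0.000132). Vamp4, which works at the trans-Golgi network and endosomes, measured 14562, 14239 and 10794 FPKM in DRG and 1707 and 2218 in CGN libraries (log2 fold change 2.72 ± 0.32 (SE), adjusted p = 0.000313). The groups were well separated for both, and both calls held under every scaling, although the Vamp4 call was lost with assembled isoforms left out (adjusted p = 0.130). Vamp5, first described in muscle, measured 1927, 891 and 1826 FPKM in DRG and 0 and 0 in CGN libraries, so that no fold is given. In the authors' grouped FPKM, Vamp5 stood at 979 in DRG and 60.9 in CGN, so its absence from CGNs is not settled. Vamp8, the endosomal endobrevin, measured 4638, 2692 and 2233 FPKM in DRG and 721 and 972 in CGN libraries (log2 fold change 1.80 ± 0.43 (SE), adjusted p = 0.0101). Vamp8 did not hold at equal total FPKM (adjusted p = 0.0556), nor without CGN replicate 1 (0.128) or CGN replicate 2 (0.0649).

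Vamp2, the main synaptobrevin of the forebrain, measured 9915, 3393 and 8971 FPKM in DRG and 9007 and 10805 in CGN libraries (log2 fold change -0.55 ± 0.47 (SE), adjusted p = 0.380). DRG replicate 2 was the lowest library and the other two DRG values lay beside the CGN values. It was called lower at equal total FPKM (adjusted p = 0.0419) and under quantile normalization (0.0391). Vamp3 (cellubrevin), widespread outside the nervous system, measured 2972, 2239.8 and 2021 FPKM in DRG and 805 and 1778 in CGN libraries (log2 fold change 0.96 ± 0.44 (SE), adjusted p = 0.111). The Vamp3 groups did not overlap, though the test was not passed. The gain in VAMPs thus lay in Vamp1, Vamp4, Vamp5 and Vamp8. Since Vamp5 and Vamp8 are also known from cells other than neurons, the Schwann, satellite and fibroblast genes given above, higher in every DRG library in sum, moved with them, and their part in the result was not tested.

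**Figure D2:**
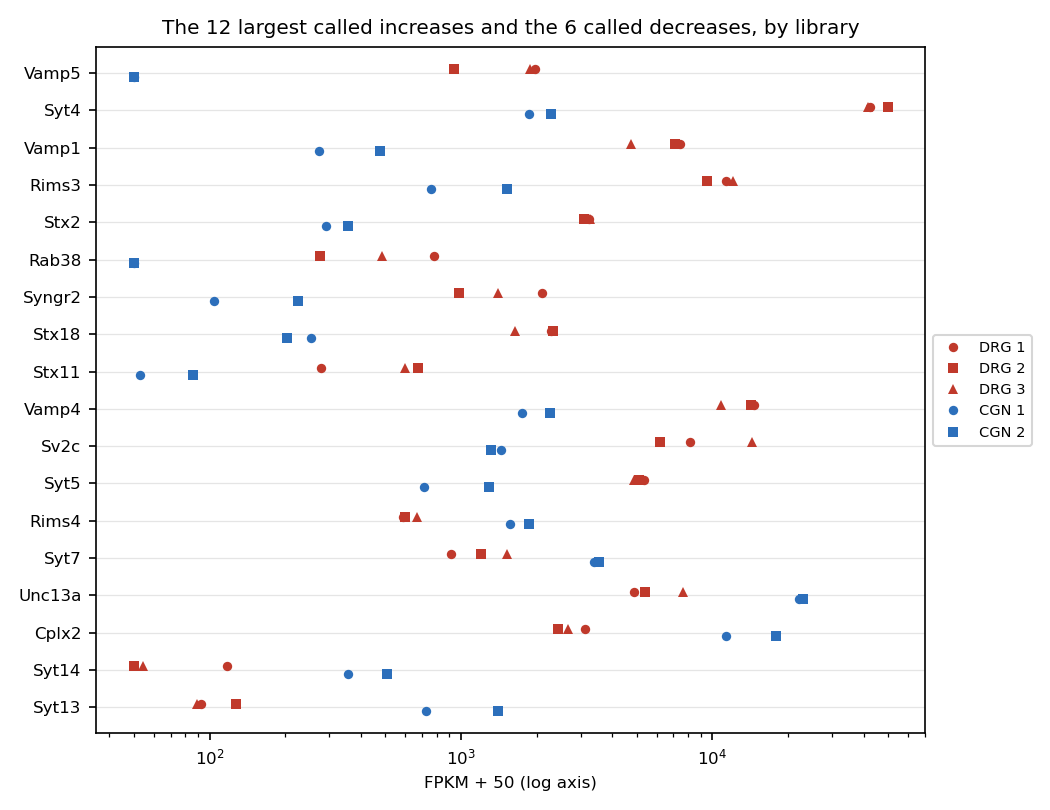
FPKM + 50 on a log axis is plotted for each library (DRG red, CGN blue, 1 symbol per replicate) for the 12 largest called increases and the 6 called decreases, 18 members without overlap. The order runs from Vamp5, listed at 0 in both CGN libraries, down to Syt13, at 39.0 to 77.8 FPKM in DRG against 676 and 1358 in CGN libraries.

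Syntaxins of the plasma membrane, the partners of the VAMPs, were called higher for 4 of 6 and lower for none. Stx2, a syntaxin of many cell types, measured 3190.0, 3038 and 3209.9 FPKM in DRG and 241 and 306 in CGN libraries (log2 fold change 3.31 ± 0.40 (SE), adjusted p = 0.000332). Stx4a, the syntaxin of regulated transport to the surface in many cells, measured 8243, 7796 and 7272 FPKM in DRG and 1525 and 2793 in CGN libraries (log2 fold change 1.88 ± 0.35 (SE), adjusted p = 0.00326). Stx11, a syntaxin of immune cells that lacks a membrane anchor, measured 227, 626 and 549 FPKM in DRG and 2.83 and 36.2 in CGN libraries (log2 fold change 2.84 ± 0.64 (SE), adjusted p = 0.00820). These 3 genes held under all 4 scalings with no overlap, but Stx11 was low and lost its call without CGN replicate 1 (adjusted p = 0.110) or CGN replicate 2 (0.0519). The glial and fibroblast markers moved in the same direction as these 3 widely expressed syntaxins, and their part was not tested. Stx3, of apical membranes and ribbon synapses, did not pass (log2 fold change -0.12 ± 0.48 (SE), adjusted p = 0.864), and its groups overlapped.

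Among these syntaxins, Stx1a, the target SNARE of transmitter release (chr5:135499403-135526970 in mm9), measured 12641, 10807 and 11984 FPKM in DRG and 4329 and 5169.5 in CGN libraries (log2 fold change 1.31 ± 0.31 (SE), adjusted p = 0.00969). Its groups were apart, yet the call was lost after quantile normalization (adjusted p = 0.137), at equal total FPKM (0.141) and without DRG replicate 1 (0.0550). Exons of Stx4a share bases with an antisense gene, and the library kit did not mark strand, so reads in the overlap cannot be told apart.

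SNAP25 proteins, the remaining partner of the SNARE complex, gave no call as deposited among 3 genes. Snap25 measured 27859, 32873 and 33429.5 FPKM in DRG and 23502 and 31908 in CGN libraries (log2 fold change 0.19 ± 0.38 (SE), adjusted p = 0.717). It was among the 3 highest members in both cell types and its groups overlapped, and relative to all genes it stood lower in DRG neurons under the other scalings (-1.02, -0.76 and -0.51 for quantile, equal total and median ratio), where its adjusted p was 0.0142, 0.0335 and 0.0862. Snap23, the form of non-neuronal cells, measured 0.890, 0.950 and 537 FPKM in DRG and 311 and 339 in CGN libraries (log2 fold change -1.70 ± 1.02 (SE), adjusted p = 0.213). The DRG libraries disagreed widely with each other, so Snap23 has no usable level there. Snap29, a widely expressed relative, did not pass either (log2 fold change 0.49 ± 0.45 (SE), adjusted p = 0.416), and its sign turned under the other scalings (-0.09, -0.42 and -0.18).

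Syntaxins of the endosome, the Golgi and the endoplasmic reticulum were higher for 5 of 9, lower for none, and 4 held under all scalings. Stx18, a syntaxin of the endoplasmic reticulum, measured 2225, 2273 and 1585 FPKM in DRG and 203 and 153 in CGN libraries (log2 fold change 3.18 ± 0.47 (SE), adjusted p = 0.000991). Its exons share bases with the antisense gene Nsg1, a gene of neuronal endosomes, so that part of its reads cannot be assigned. Stx7, of late endosomes and lysosomes, measured 18588, 19226 and 15126 FPKM in DRG and 3365 and 5921 in CGN libraries (log2 fold change 1.96 ± 0.36 (SE), adjusted p = 0.00278). Stx12, of recycling endosomes, measured 11569, 11957 and 10398 FPKM in DRG and 2758 and 5007 in CGN libraries (log2 fold change 1.59 ± 0.35 (SE), adjusted p = 0.00709). Stx8, a partner of Stx7, measured 6237, 5456 and 4583 FPKM in DRG and 1482 and 2559 in CGN libraries (log2 fold change 1.44 ± 0.36 (SE), adjusted p = 0.0126). All 4 were higher in each DRG library than in either CGN library, and only Stx8 lost its call with a library left out, CGN replicate 1 (adjusted p = 0.0682). Stx5a and Stx5 lie at the same locus under 2 symbols, and their rows differ in size, 2409.9, 2491 and 1708 against 749 and 383 FPKM for Stx5a and 4805, 4323 and 4578 against 2578 and 5154 FPKM for Stx5. Of these rows, Stx5a was called (log2 fold change 1.92 ± 0.45 (SE), adjusted p = 0.00958) and Stx5 was not (log2 fold change 0.32 ± 0.37 (SE), adjusted p = 0.524), and the part of the split of reads between them was not tested. The sign of Stx5 turned under the other scalings, with a call at equal total FPKM (-0.62, adjusted p = 0.0190).

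Nsf, the ATPase that recycles SNAREs, measured 14669.7, 10719 and 13762 FPKM in DRG and 2362 and 3613 in CGN libraries (log2 fold change 2.13 ± 0.34 (SE), adjusted p = 0.00145). The groups were far apart and the call held under every scaling and without any single library. Among 6 syntaxin-binding genes, 2 were higher and 4 did not pass. Stxbp3a (Munc18c), a partner of Stx4, measured 825, 799 and 826 FPKM in DRG and 134 and 156 in CGN libraries (log2 fold change 2.16 ± 0.53 (SE), adjusted p = 0.0114), and Stxbp2 (Munc18-2), known from secretion in epithelial and immune cells, measured 1496, 1987 and 2208 FPKM in DRG and 352 and 724 in CGN libraries (log2 fold change 1.79 ± 0.47 (SE), adjusted p = 0.0154). The Stxbp2 call did not hold at equal total FPKM (adjusted p = 0.0695) or without CGN replicate 1 (0.0837). The tomosyns Stxbp5 and Stxbp5l and the Stx4 partner Stxbp4 did not pass as deposited. Stxbp5l was called lower at equal total FPKM (adjusted p = 0.0193) and under median ratio scaling (0.0374).

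Both complexins were called, in opposite directions. Cplx1 measured 36449.6, 33026 and 31374 FPKM in DRG and 10563 and 14639.9 in CGN libraries (log2 fold change 1.43 ± 0.36 (SE), adjusted p = 0.0125). Cplx2 measured 3059, 2387 and 2624 FPKM in DRG and 11276 and 17868 in CGN libraries (log2 fold change -2.39 ± 0.34 (SE), adjusted p = 0.000784). The cell types did not overlap for either gene, and Cplx1 was the second highest member in DRG neurons. The Cplx2 call held in every setting run, while that of Cplx1 was lost after quantile normalization (adjusted p = 0.132) and without DRG replicate 1 (0.0532). The promoters of the pair, printed above, differ in the GC box, and a link to the calls was not tested. That motif was in 25 of 31 members called higher, 2 of 3 called lower and 28 of 34 that did not pass.

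At the active zone, 1 of 9 tested genes was higher, 2 were lower and 6 did not pass. Unc13a (Munc13-1), which primes vesicles for fusion, measured 4828, 5341 and 7617 FPKM in DRG and 22122 and 22858 in CGN libraries (log2 fold change -1.94 ± 0.34 (SE), adjusted p = 0.00217). Rims4, a short member of the Rim family with a single C2 domain, measured 541, 549 and 619 FPKM in DRG and 1523 and 1811 in CGN libraries (log2 fold change -1.47 ± 0.44 (SE), adjusted p = 0.0280). Both were lower in every DRG library. Unc13a kept its call without each library in turn, whereas Rims4 lost it each time, with adjusted p from 0.0514 (without DRG replicate 3) to 0.0739 (without DRG replicate 1). Rims3, the other short form, went the other way, at 11283, 9443 and 12083 against 708 and 1471 FPKM for DRG against CGN libraries (log2 fold change 3.35 ± 0.38 (SE), adjusted p = 0.000245). Every DRG library was far above both CGN libraries, and the call held in every setting run.

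The large scaffolds gave no call as deposited. Rims1 measured 945, 1767 and 2242 FPKM in DRG and 1742 and 2584 in CGN libraries and Rims2 measured 832, 1009 and 1324 FPKM in DRG and 1149 and 1118 in CGN libraries. Bsn (Bassoon) measured 1860.0, 1384 and 3047 FPKM in DRG and 1949 and 3785 in CGN libraries, and Pclo (Piccolo) measured 472, 178 and 660.4 FPKM in DRG and 856 and 899.8 in CGN libraries. Only Pclo did not overlap, with all DRG libraries below the CGN libraries (log2 fold change -1.08 ± 0.61 (SE), adjusted p = 0.193). The log2 fold changes of Rims1, Rims2 and Bsn were -0.44, -0.12 and -0.44. Among the Munc13 relatives, Unc13b stood at 605, 1297 and 1306 against 1471 and 1975 FPKM and Unc13c at 64.8, 155 and 266 against 1.31 and 21.0 FPKM, and neither passed as deposited. Unc13b was called lower under the other scalings (adjusted p = 0.0438, 0.0336 and 0.0470) and Unc13c higher after quantile normalization alone (0.0416). Bsn and Pclo were called lower at equal total FPKM alone (adjusted p = 0.0266 and 0.0355).

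Rab3 GTPases bind Rim and bring vesicles to the active zone. Rab3a measured 20306, 15602 and 15817 FPKM in DRG and 22284 and 31646 in CGN libraries (log2 fold change -0.63 ± 0.36 (SE), adjusted p = 0.194). All DRG libraries lay below the CGN libraries, short of the threshold as deposited and past it under the other scalings (adjusted p = 0.000439, 0.000798 and 0.00191 for quantile, equal total and median ratio). Its exons share bases with the antisense gene Mpv17l2, and those of the Rab3 regulator Rab3gap2, given below, with the antisense gene Iars2. Rab3c measured 10986, 11394 and 10534 FPKM in DRG and 4603 and 4937 in CGN libraries (log2 fold change 1.19 ± 0.30 (SE), adjusted p = 0.0131) and Rab3d, of secretory granules, measured 6704, 4694 and 8914 FPKM in DRG and 2231 and 3851 in CGN libraries (log2 fold change 1.15 ± 0.39 (SE), adjusted p = 0.0450). Their calls did not hold under any of the other 3 scalings, so of the 4 genes with their paralog Rab3b none was called throughout. Without DRG replicates 1, 2 and 3 the adjusted p of Rab3c was 0.0693, 0.0738 and 0.0590. Rab3d likewise lost its call without CGN replicates 1 (0.299) or 2 (0.0782) and DRG replicates 1 (0.0965) or 3 (0.163). Of the 4 regulators, the GTPase-activating subunit Rab3gap2 was called (log2 fold change 1.28 ± 0.35 (SE), adjusted p = 0.0186), and not at equal total FPKM (adjusted p = 0.155) or without CGN replicate 1 (0.0851), DRG replicate 1 (0.0620) or DRG replicate 3 (0.0731).

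Among the membrane proteins of the vesicle, 3 of 8 were higher and 5 did not pass, and under each of the other scalings 3 were higher and 3 lower. Sv2c, an SV2 form of restricted distribution in the brain, measured 8075, 6140.1 and 14377 FPKM in DRG and 1388 and 1266 in CGN libraries (log2 fold change 2.71 ± 0.40 (SE), adjusted p = 0.000997). Syngr3 (synaptogyrin 3), a neuronal synaptogyrin, measured 13884, 10933 and 12099.8 FPKM in DRG and 3499 and 4886 in CGN libraries (log2 fold change 1.55 ± 0.32 (SE), adjusted p = 0.00539). Syngr2, the synaptogyrin of non-neuronal cells, measured 2053, 933 and 1352 FPKM in DRG and 54.5 and 175 in CGN libraries (log2 fold change 3.22 ± 0.60 (SE), adjusted p = 0.00318). Every DRG library was above the CGN libraries for these 3, under all scalings. Without CGN replicate 1 the adjusted p rose to 0.0634 for Sv2c and 0.0684 for Syngr2. Syngr2 shares exon bases with Afmid on the same strand, and glial and fibroblast markers, whose part was not tested, moved with it.

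Syp (synaptophysin), among the most abundant proteins of the vesicle, measured 21168, 19540.1 and 17735 FPKM in DRG and 23043 and 32430.1 in CGN libraries (log2 fold change -0.49 ± 0.36 (SE), adjusted p = 0.306). Sv2b measured 750.0, 884 and 886 FPKM in DRG and 1302 and 2055 in CGN libraries (log2 fold change -0.93 ± 0.43 (SE), adjusted p = 0.120), and Sv2a, the widespread form, measured 353, 47.4 and 459 FPKM in DRG and 322 and 445 in CGN libraries (log2 fold change -0.66 ± 0.78 (SE), adjusted p = 0.533). Syp and Sv2b were below the CGN libraries in every DRG library, and were called lower under the other scalings (adjusted p = 0.000688, 0.00121 and 0.00203 for Syp and 0.00405, 0.00363 and 0.00445 for Sv2b, after quantile, equal total and median ratio scaling), while the Sv2a groups overlapped, with DRG replicate 2 far below the other libraries. Syngr1 measured 14922, 13529 and 13701 FPKM in DRG and 9014 and 10772 in CGN libraries and Synpr (synaptoporin) measured 2307, 2064 and 2169 FPKM in DRG and 2154 and 3737 in CGN libraries. Neither passed as deposited, with log2 fold changes of 0.51 and -0.38. Synpr was called lower under the other scalings (adjusted p = 0.00291, 0.00186 and 0.00308), and the sign of Syngr1 turned under all 3.

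Synapsins coat vesicles and tether them in the reserve pool. Syn1 (chrX:20425691-20498055 in mm9) measured 24412, 14856 and 23359 FPKM in DRG and 6556 and 7222 in CGN libraries (log2 fold change 1.56 ± 0.35 (SE), adjusted p = 0.00820). Syn2 measured 5820.5, 4998 and 5409.9 FPKM in DRG and 3420.5 and 4601 in CGN libraries (log2 fold change 0.44 ± 0.32 (SE), adjusted p = 0.302). DRG libraries were higher for both without overlap, but the Syn1 call was lost under the other scalings (adjusted p = 0.153, 0.108 and 0.0575 for quantile, equal total and median ratio) and without CGN replicate 1 (0.0871) or CGN replicate 2 (0.0551). The sign of Syn2 turned under the same scalings, with a call of lower at equal total FPKM alone (log2 fold change -0.50, adjusted p = 0.0360). Exons of Syn1 share bases with the antisense gene Araf. Syn3, whose exons share bases with the antisense gene Timp3, was scattered among the DRG libraries (481, 199 and 1066 against 203 and 258 FPKM).

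**Figure D3:**
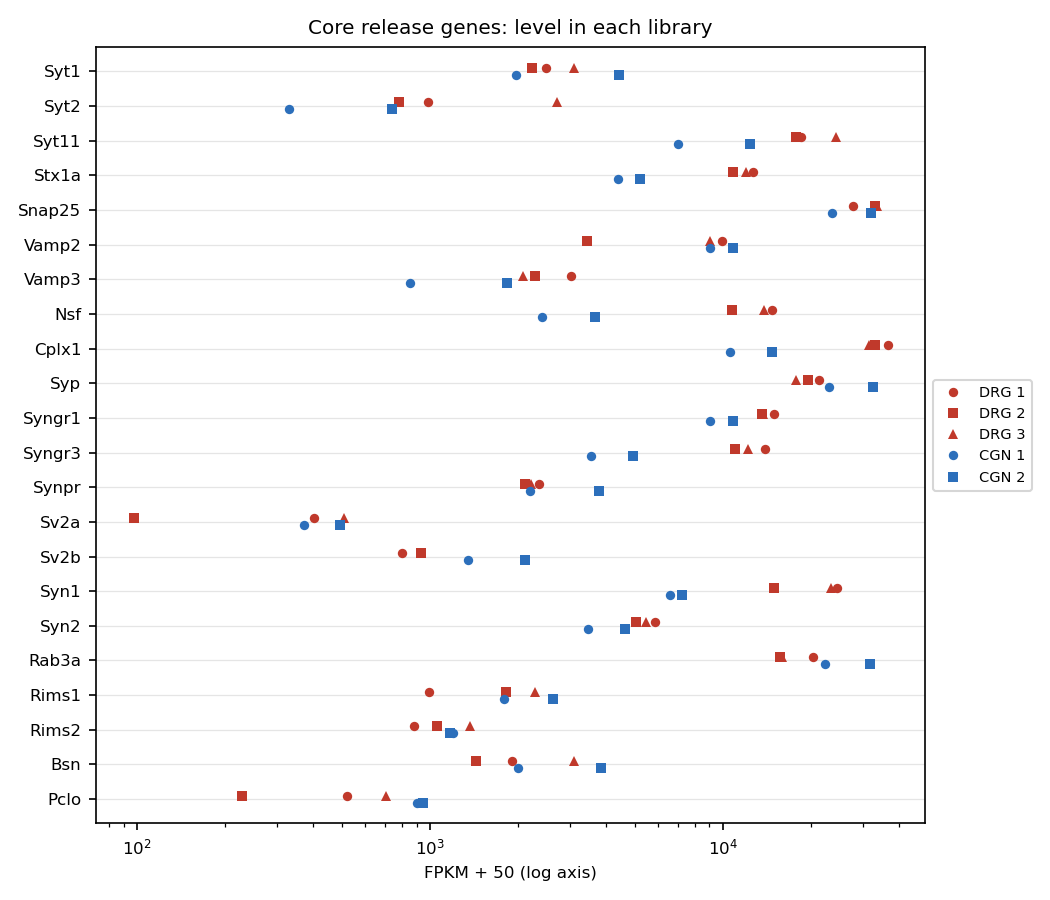
FPKM + 50 on a log axis is plotted for each library (DRG red, CGN blue) for 22 core release genes. Snap25, Syp and Rab3a stand at 15601.5 FPKM or more in every library, with the cell types overlapping for Snap25, while Nsf, Stx1a, Syn1, Cplx1 and Syngr3 are higher in every DRG library.

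Of the 11 Rab GTPases that the pattern took in, 6 were higher and 5 did not pass. Rab38, of lysosome-related organelles, measured 729, 226 and 433 FPKM in DRG and 0 and 0 in CGN libraries, and no fold is given. Rab33a and Rab34, both linked to Golgi traffic, stood at 4724, 4937 and 4413 against 884 and 1618 FPKM and 4316, 2012 and 3222 against 553 and 938 FPKM for DRG against CGN libraries, and Rab39 at 1298, 1084 and 1239 against 130.3 and 362 FPKM. Of these 4, only Rab33a held both under all scalings and without any library. With assembled isoforms left out, Rab34 was not called (log2 fold change 0.35, adjusted p = 0.746). The assembled Rab34_j2 held 97.3, 94.2 and 92.1% of the gene in DRG and 83.2 and 52.6% in CGN libraries. The call of Rab34 was lost without CGN replicate 1 (adjusted p = 0.123), as was that of Rab39 (0.0574), and that of Rab38 without CGN replicate 1 (0.0760) or CGN replicate 2 (0.0557). Snap91, the clathrin adaptor, measured 9216, 10539 and 9685 FPKM in DRG and 4645 and 6946 in CGN libraries and did not pass (log2 fold change 0.78 ± 0.33 (SE), adjusted p = 0.0857), and its sign turned at equal total FPKM (-0.16) and under quantile normalization (-0.14).

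The share of a gene in the summed FPKM of a pair does not depend on the scaling between libraries. Over 15 pairs of related members, 11 had no overlap between the cell types, and 9 reached the smallest p that an exact two-sided permutation over 10 splits allows, 0.1, with an adjusted p of 0.167 over the pairs, so none could pass 0.05. Pairs of other genes were not examined, so no background share stands beside these counts. Cplx1 held 92.3, 93.3 and 92.3% in DRG and 48.4 and 45.0% in CGN libraries of the complexin FPKM. In DRG neurons complexin was thus almost entirely Cplx1, and in CGNs it was split nearly evenly. Vamp1 held 42.6, 67.5 and 34.4% in DRG and 2.42 and 3.78% in CGN libraries of the FPKM it shared with Vamp2. Syt1 held 5.48, 4.20 and 6.80% in DRG and 51.5 and 66.2% in CGN libraries of its sum with Syt4. Vamp2 and Syt1 led their pairs in CGNs, whereas Syt4 led in DRG neurons and Vamp1 led in DRG replicate 2 alone.

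Shares shifted within the Rab3, synapsin and SV2 pairs as well. Rab3a held 64.9, 57.8 and 60.0% in DRG and 82.9 and 86.5% in CGN libraries of its sum with Rab3c. Sv2a held 4.19, 0.767 and 3.10% in DRG and 18.9 and 26.0% in CGN libraries of its sum with Sv2c. Syngr3 held 48.2, 44.7 and 46.9% in DRG and 28.0 and 31.2% in CGN libraries of its sum with Syngr1, and Syn1 80.7, 74.8 and 81.2% in DRG and 65.7 and 61.1% in CGN libraries of its sum with Syn2. Syngr1 and Syn1 led their pairs in every library, by less and by more in DRG neurons. The pairs of Snap25 with Snap23, Rims1 with Rims2, Sv2a with Sv2b and Bsn with Pclo overlapped.

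**Figure D4:**
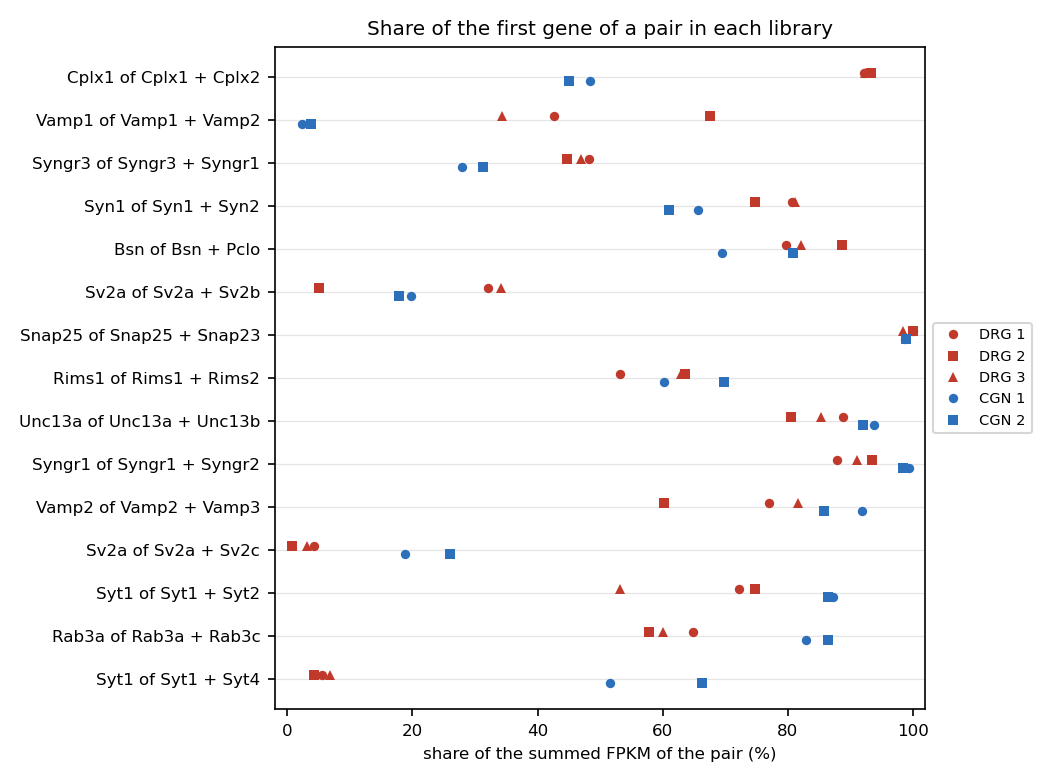
For each of 15 pairs, the share of the first gene in the pair's summed FPKM (percent) is plotted for each library, DRG red and CGN blue, ordered by the difference between cell types. The first row, Cplx1, is at 92.3 to 93.3% in DRG and 45.0 and 48.4% in CGN libraries, and the last, Syt1 beside Syt4, at 4.20 to 6.80% against 51.5 and 66.2%.

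Of the 351 isoforms, 253 were assembled from the reads (marked _j) and 98 were reference isoforms, and 70 of the 88 genes had more than 1. Among 243 isoforms tested, of 86 genes, 36 were higher in DRG neurons (14.8%, beside 9.63% of all 33587 isoforms) and 13 lower (5.35%, beside 5.04%). They lay in 31 and 9 genes, and 4 genes, Snap25, Unc13a, Syt7 and Rab3gap2, had isoforms called both ways. Of the 36, 25 were higher under all scalings, and all 13 stayed lower. Snap25, flat as a gene, divided between its isoforms. The reference isoform uc008mop.1 measured 22110.5, 26721 and 23575 FPKM in DRG and 5473 and 8232 in CGN libraries (log2 fold change 1.83 ± 0.31 (SE), adjusted p = 0.0183), and the assembled Snap25_j1 measured 1431, 4711 and 1711 FPKM in DRG and 8815 and 13661 in CGN libraries (log2 fold change -2.25 ± 0.57 (SE), adjusted p = 0.0485). The former led in every DRG library. By mean FPKM the latter led in CGNs, although the third isoform, Snap25_j2, was the highest in CGN replicate 1. Neither of the called isoforms overlapped between the cell types, and the increase of uc008mop.1 was not called under all scalings. Its share of Snap25 was 79.4, 81.3 and 70.5% in DRG and 23.3 and 25.8% in CGN libraries.

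Unc13a was lower for most of its called isoforms, but not for all. The reference isoform uc009mei.1 measured 1207, 1826 and 2634 FPKM in DRG and 5793 and 7893 in CGN libraries (log2 fold change -1.88 ± 0.42 (SE), adjusted p = 0.0362), and the assembled Unc13a_j10 40.6, 292 and 450.3 FPKM in DRG and 4026 and 4853 in CGN libraries (log2 fold change -4.16 ± 0.79 (SE), adjusted p = 0.0240). The assembled Unc13a_j11, in contrast, was listed at 580.0, 608 and 382 against 3.73e-40 and 1.86e-29 FPKM for DRG and CGN libraries. Syt7 was divided in the same way, with Syt7_j8 at 6.68, 2.38e-12 and 9.3e-26 against 250.1 and 344 FPKM and Syt7_j10 at 538, 621 and 291 against 1.25e-11 and 0.0400 FPKM. In each gene an isoform thus stood against the gene's total. In Cplx2 the reference isoform uc007qoc.1 measured 1232, 517 and 483 FPKM in DRG and 7738 and 12182 in CGN libraries (log2 fold change -3.74 ± 0.51 (SE), adjusted p = 0.0104), and it held 40.3, 21.6 and 18.4% in DRG and 68.6 and 68.2% in CGN libraries of the gene.

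The share of the leading isoform was compared for 62 genes with at least 2 isoforms of 50 FPKM on average. It did not overlap between the cell types for 26, and 22 reached the smallest exact two-sided permutation p of 0.1 (adjusted p = 0.282). Genes outside the members were not compared in this way, so whether these counts are unusual is not known. Of the 62 genes, the same isoform led in all 5 libraries for 23, and by mean FPKM the leader differed between the cell types for 26. In 3 of these, Stx18, Sv2b and Vamp4, 1 isoform led in every DRG library and another in every CGN library. Stx18 uc008xfy.1 held 96.0, 88.0 and 94.7% in DRG and 21.2 and 2.96% in CGN libraries. The CGN shares of Stx18 rest on gene sums of only 203 and 153 FPKM, and its exons overlap the antisense gene Nsg1. Sv2b uc009hwl.1 held 19.0, 20.8 and 27.1% in DRG and 85.0 and 89.9% in CGN libraries. Stx4a, which kept 1 leader by mean FPKM, also shifted, with uc009jwy.1 at 83.7, 89.3 and 82.5% in DRG and 31.7 and 38.8% in CGN libraries. The assembled isoform Vamp4_j1 held 73.8, 79.1 and 77.1% in DRG and 24.2 and 1.11% in CGN libraries. The increase of Stx18 and Vamp4 in DRG neurons therefore rested on the isoform that was minor in CGNs, where Vamp4_j1 measured 10745, 11267 and 8318 FPKM in DRG and 414 and 24.7 in CGN libraries. FPKM of single isoforms are model estimates from short reads, and the authors' lower confidence bound was above 0 for 56.8% of the members' isoform values.

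**Figure D5:**
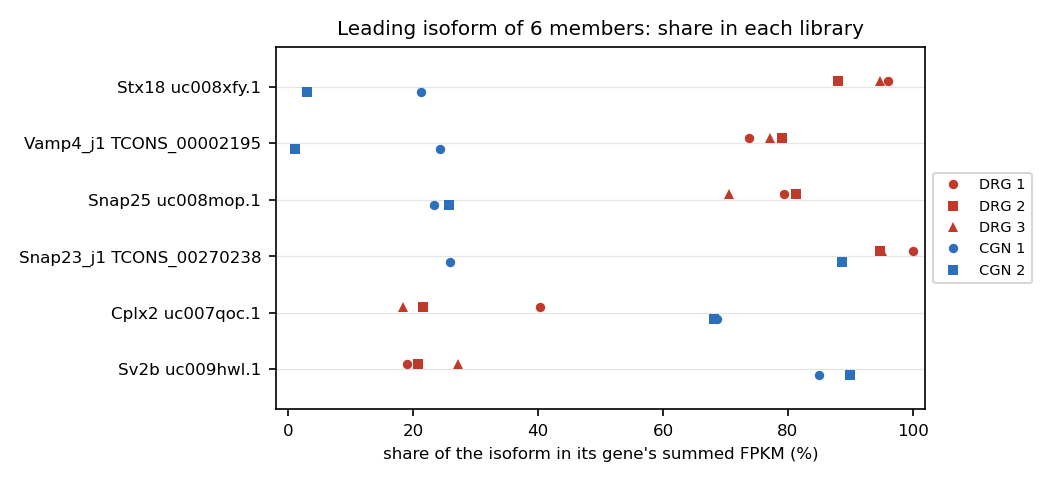
The share (percent) of the isoform with the highest mean FPKM in its gene's sum is plotted for each library, DRG red and CGN blue, for the 6 members with the largest difference among the genes of the largest called changes and the core release genes. Stx18, Vamp4, Snap25 and Snap23 lie to the right in DRG libraries, and Cplx2 and Sv2b to the left, with Snap23 resting on DRG sums as low as 0.89 FPKM.

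Partners of the release machinery that the symbol rule did not take in, from a list of 36 genes in the table, were higher for 10, lower for 2 and not passing for 22 of 34 tested, 8 and 2 of them under all scalings, beside 28.4% and 9.22% of all genes as deposited and 17.0% and 9.08% under all scalings. Of the adaptors that bring Nsf to the SNARE complex, only Napb and Napg are given here, and both rose with it. Napb, the neuronal beta-SNAP, measured 24738, 30398 and 25162 FPKM in DRG and 1902 and 3066 in CGN libraries (log2 fold change 3.44 ± 0.34 (SE), adjusted p = 0.000132). Napg, gamma-SNAP, measured 7889.9, 8816 and 7882 FPKM in DRG and 1432 and 2387 in CGN libraries (log2 fold change 2.12 ± 0.34 (SE), adjusted p = 0.00150). Sytl2, a Rab27 effector of secretory granules, measured 3277, 2518 and 4899.6 FPKM in DRG and 4.03 and 7.60 in CGN libraries (log2 fold change 5.96 ± 0.52 (SE), adjusted p = 6.79e-05). All 3 were higher in every DRG library. Cadps2, a priming factor of dense-core vesicles, measured 249, 564 and 73.8 FPKM in DRG and 8436 and 17385 in CGN libraries (log2 fold change -5.42 ± 0.66 (SE), adjusted p = 0.000347), whereas its paralog Cadps measured 15547, 16062 and 15843 FPKM in DRG and 7302 and 9983 in CGN libraries (log2 fold change 0.89 ± 0.32 (SE), adjusted p = 0.0560). Rph3al, another Rab effector, measured 116, 56.5 and 141 FPKM in DRG and 1253 and 2521 in CGN libraries (log2 fold change -3.61 ± 0.61 (SE), adjusted p = 0.00187). Cadps2 and Rph3al were lower in every DRG library and under every scaling, and Cadps was higher in every DRG library without passing the test.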

How the data were processed

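The deposited table, made by the authors with TopHat, Cufflinks and Cuffdiff on mm9, holds FPKM (upper-quartile normalized by the paper's methods) per isoform for each of 5 libraries and grouped per cell type, with confidence bounds. Its columns of the authors' own comparison (test status, fold change, statistic, p-value, call) and 2 repeated FPKM columns were not used. No per-sample column was left over. Library depth is not in the table, so no counting interval is given. Isoform FPKM were summed per gene in Python 3.11.15 (pandas 2.3.3, numpy 2.4.6, matplotlib 3.10.9) and tested with limma 3.58.1 (R 4.3.3, empirical Bayes with trend), on log2(FPKM + 50), for features of at least 50 FPKM in at least 2 libraries. The limma steps were tested on simulated data. Shares were compared by exact permutation. Coordinates and exon overlaps are from the table and GENCODE M1, promoters from RefSeq. Alternatives were pseudocounts, filters, 3 scalings, limma settings, reference isoforms only, grouped FPKM, a replicate block and leaving out each library. Full values are given for the called members with the 12 largest changes in each direction and no overlap, and for core release genes, apart from a few items and the pairs that hold them, which are not reported here. For isoforms, full values are given for the 6 of these members with the largest change of share, and other isoforms were chosen after their values were seen, as were the partner genes named. Members and lists were chosen with earlier results of these data known.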

Additional observations from a re-analysis of the deposited data

How the results depend on the processing

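Calls of lower genes depended most on scaling, and those of isoforms on the number of libraries. The 37 genes called higher became 24 at equal total FPKM, and 21 (without CGN replicate 1) to 39 (without CGN replicate 2) with a library left out. The 6 lower genes became 20 after quantile normalization, 26 at equal total FPKM and 17 under median ratio scaling, and 3 (without CGN replicate 1 or 2) to 8 (without DRG replicate 3). The 36 isoforms called higher became 23 in limma without trend, and 4, 11, 6 and 18 without DRG replicates 1, 2 and 3 and CGN replicate 1, within a range of 4 to 32. The 13 lower isoforms became 5 with no filter, 30, 37 and 31 under quantile, equal total and median ratio scaling, and 2, 3 and 3 without DRG replicates 1, 2 and 3, within a range of 2 to 11. With a CGN library left out, the lone CGN library was assumed to vary like the DRG libraries. Single calls held without each library in turn for 17 of the 37 genes and 3 of the 6.

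Replicate numbers name cultures of different animals, and the deviations of DRG and CGN libraries of the same number correlated at -0.02 and 0.01, so they do not pair. No CGN library carries number 3, so the block sets DRG replicate 3 aside. The fold changes with the block are those without that library, and it is no separate check. With the replicate block, 23 genes were higher, 22 of them among the 37, and 6 lower, 4 of them among the 6. Rims4 (adjusted p = 0.111) and Syt7 (0.0532) were no longer called lower, and Snap23 (0.00289) and Stxbp4 (0.00499) were. Snap23 and Stxbp4 had their highest DRG values, 537 and 843 FPKM, in the replicate set aside.

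The sign turned under at least 1 scaling for 14 members that did not pass as deposited. Among the core release genes these included, under quantile, equal total and median ratio scaling, Snap25 (-1.02, -0.76 and -0.51), Syn2 (-0.34, -0.50 and -0.25) and Syngr1 (-0.56, -0.44 and -0.19). With a library left out, the fold change ranged from -0.028 (without CGN replicate 1) to 0.41 for Snap25, -0.29 to 0.028 (without DRG replicate 1) for Rims2, -1.11 to 0.079 (without DRG replicate 2) for Sv2a, and, upwards without CGN replicate 2, -0.91 to 0.029 for Bsn, -0.77 to 0.015 for Synpr and -0.77 to 0.39 for Syt1. With reference isoforms only, Synpr was at 1.13. The share of Rims1 in its sum with Rims2 turned from -5.13 to 11.4 percentage points in the authors' grouped FPKM. With reference isoforms only, 3 pair shares moved: Syt1 beside Syt2 to -0.02, Cplx1 to 41.7 and Sv2a beside Sv2c to -29.0 points. In the grouped FPKM, the share of Sv2b uc009hwl.1 moved to -53.8 points. The causes were not tested beyond what each setting changes.

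With 3 and 2 cultures and no read counts, small differences of low genes could not be resolved.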

Other observations

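Genes of vesicle recycling, which recover vesicle membrane after fusion, were not part of the symbol rule. Of 31 in the table, 29 were tested, 12 were higher in DRG neurons, 3 were lower and 14 did not pass, with 8 and 3 called under all scalings, beside 28.4% of all genes higher and 9.22% lower as deposited. The dynamins, which cut vesicles from the membrane, were all higher: Dnm1 measured 18723, 15025 and 17618 FPKM in DRG and 3362 and 3264 in CGN libraries (log2 fold change 2.35 ± 0.31 (SE), adjusted p = 0.000514). Dnm2 stood at 2517, 2424 and 4348 against 306 and 662 FPKM and Dnm3 at 2439, 2627 and 4232 against 435 and 229.6 FPKM, with log2 fold changes of 2.59 and 3.05. The clathrin light chain Cltb measured 34409, 24389 and 32109.5 FPKM in DRG and 4391 and 5447 in CGN libraries (log2 fold change 2.60 ± 0.34 (SE), adjusted p = 0.000495). Each of these 4 genes was higher in every DRG library, under all 4 scalings.

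The 3 genes that were lower work beside dynamin. Itsn1 (intersectin 1), an endocytic scaffold, measured 2468, 2055 and 2118 FPKM in DRG and 13617 and 24325 in CGN libraries (log2 fold change -3.02 ± 0.35 (SE), adjusted p = 0.000284). Sh3gl2 (endophilin A1), which bends membrane, measured 1962, 2223 and 1549 FPKM in DRG and 10489.7 and 15822 in CGN libraries (log2 fold change -2.74 ± 0.35 (SE), adjusted p = 0.000424). Amph (amphiphysin) measured 3406, 4589 and 2572 FPKM in DRG and 6085 and 8744 in CGN libraries (log2 fold change -1.08 ± 0.36 (SE), adjusted p = 0.0425). In contrast Itsn2, the paralog of Itsn1, was higher at 2772, 4449 and 2689.5 against 409.8 and 384 FPKM (log2 fold change 2.87 ± 0.41 (SE), adjusted p = 0.00086), so that the intersectins, like the complexins, were called in opposite directions.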
